A study of Mus musculus with 9 samples.

Results

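Leukocyte integrins are the adhesion receptors through which white blood cells stop on vessel walls, enter tissue and hold on to other cells. The 8 genes described here were taken by name, by a rule that uses no measured value. The genes and the lists used below were, however, chosen with earlier results of these data known. Shares of all genes beside their counts are therefore given as a description. All 8 genes are among the 18755 genes of the deposited count table. They encode the chains of the β2 family (Itgal, Itgam, Itgax and Itgad with their common partner Itgb2) and of the α4 and β7 family (Itga4, Itgae and Itgb7). RNA came from 4T1 primary tumors, which were grown from 1000000 cells of this murine breast cancer line in fat pad 9 of female BALB/c mice that were 6 to 10 weeks old. From day 15 after injection, 6 mice received 50 mg/kg of the FAK inhibitor BI 853520 (abbreviated BI) by mouth each day for 5 days. For 5 days 3 mice received the 0.5% Natrosol vehicle, in which the inhibitor was also dissolved. All tumors thus came from 1 transplanted line, and only those with sufficient RNA quality were kept by the study. Each tumor gave 1 library from frozen tissue, so that tumor, stromal and immune cells were measured together. Library totals lay between 21727879 and 33850245 counts for vehicle-treated and between 16931607 and 22349873 counts for BI-treated tumors. The labelled tissue was checked against epithelial markers: Krt8 stood at 478 ± 58.3 CPM (counts per 1000000, SD, n = 3) and Krt18 at 579 ± 57.7 CPM in vehicle-treated tumors, while Epcam stood at 2.13 ± 0.603 CPM.

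An integrin is a pair of an α and a β chain, and a chain without its partner does not reach the cell surface. The β2 chain CD18, encoded by Itgb2, pairs with CD11a (Itgal) to form LFA-1, with CD11b (Itgam) to form Mac-1, with CD11c (Itgax) and with CD11d (Itgad). LFA-1 is found on most leukocytes and holds T cells to their targets, Mac-1 marks neutrophils, monocytes and macrophages, CD11c is used as a marker of dendritic cells but is also found on macrophages, and CD11d is a less studied chain of tissue macrophages. CD49d (Itga4) pairs with β1 to form VLA-4, which binds VCAM-1 and fibronectin, or with β7 to form the receptor for the gut addressin MAdCAM-1. CD103 (Itgae) pairs with β7 alone, binds E-cadherin, and is known from intraepithelial T cells and from cross-presenting dendritic cells. FAK is a kinase that acts downstream of integrins at sites of contact with the matrix.

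Itgal, Itgam, Itgax and Itgad lie on the plus strand of chromosome 7 of mm9. Itgal spans 134439774 to 134478651, Itgam 135206154 to 135271674, Itgax 135273061 to 135294171 and Itgad 135297890 to 135349015. Only 1386 bases separate Itgam from Itgax and 3718 bases separate Itgax from Itgad, whereas Itgal lies 727502 bases upstream of Itgam. Itgae lies on chromosome 11 from 72904085 to 72960948, Itga4 on chromosome 2 from 79095583 to 79173280, Itgb2 on chromosome 10 from 76992997 to 77028453, and Itgb7 on the minus strand of chromosome 15 from 102046426 to 102062366. All are protein-coding genes with several exons. On the other strand, exons of Itgad overlap those of Cox6a2, and exons of Itga4 overlap those of Cerkl. The library kit keeps the strand of the RNA, but the sources do not say whether strand was used in counting, and if it was not, reads from the overlap of such a pair cannot be told apart.

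The RefSeq promoter table (GRCm38.p6, 250 bases before to 50 bases after a start site) held 4 of the 8 genes: Itgam, Itgax, Itgb7 and Itga4. The first 3 are shown because they differed in their change under BI, and because Itgam and Itgax are neighbors. Capitals mark, on either strand, GAGGAA (the core bound by the myeloid factor PU.1), TGTGGT (the core bound by RUNX factors) and GGGCGG (the GC box of Sp and KLF factors), and none of these matches overlap. They lie at chr7:128062390-128062689 on the plus strand for Itgam, chr7:128129300-128129599 on the plus strand for Itgax and chr15:102231886-102232185 on the minus strand for Itgb7.
Itgam: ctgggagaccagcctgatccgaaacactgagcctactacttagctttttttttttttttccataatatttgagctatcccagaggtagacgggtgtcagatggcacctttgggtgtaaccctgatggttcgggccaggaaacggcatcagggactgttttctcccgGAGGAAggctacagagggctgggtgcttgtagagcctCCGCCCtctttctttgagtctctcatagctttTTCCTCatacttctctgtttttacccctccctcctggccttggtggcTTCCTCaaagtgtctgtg
Itgax: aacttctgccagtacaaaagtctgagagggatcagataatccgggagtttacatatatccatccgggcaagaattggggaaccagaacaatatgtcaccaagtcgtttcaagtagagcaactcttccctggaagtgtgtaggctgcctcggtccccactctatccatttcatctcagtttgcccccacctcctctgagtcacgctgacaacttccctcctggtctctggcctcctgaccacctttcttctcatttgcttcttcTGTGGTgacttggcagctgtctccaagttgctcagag
Itgb7: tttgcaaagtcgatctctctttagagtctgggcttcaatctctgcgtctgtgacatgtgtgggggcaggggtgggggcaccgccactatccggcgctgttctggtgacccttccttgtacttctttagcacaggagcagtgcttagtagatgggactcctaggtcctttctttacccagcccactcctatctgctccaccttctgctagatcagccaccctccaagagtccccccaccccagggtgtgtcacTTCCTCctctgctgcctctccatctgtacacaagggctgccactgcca
The Itgam window held 3 PU.1 cores, whose first letters on the printed strand lie at -84, -15 and 32 from the start site, and a GC box at -47. The Itgax window held 1 RUNX core at 13 and no PU.1 core, and the Itgb7 window 1 PU.1 core at 2. The Itga4 window held a RUNX core at -60 and a GC box at -114. Of all 32851 promoter windows in the table, 28.28% held a PU.1 core, 16.76% a RUNX core and 35.66% a GC box. The matches describe letters in a window, and binding was not measured.

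To compare the treatment groups, counts were scaled with TMM and tested across the 13966 genes that passed a filter on low counts, and all 8 leukocyte integrins passed it, Itgad only through BI-treated tumors. With an adjusted p limit of 0.05 (edgeR quasi-likelihood F test), transcripts of 6 of the 8 genes rose, those of Itgb7 fell and those of Itgax did not pass. Over all genes tested, 14.6% rose and 14.1% fell by the same rule. The 6 included Itgad, and without the filter 6 genes were called higher as well. Without vehicle replicate 2 or vehicle replicate 3 the call of Itgad was lost, and 5 genes rose. The median log2 fold change of the 8 genes was 0.78, against -0.00371 over all genes tested. This median counts Itgad, and the middle value of the other members was that of Itgam, 0.53. At the cutoffs of the study (unadjusted p of at most 0.05, and at least 1.5-fold), 4 members were higher (background 9.57%) and 1 was lower (background 3.57%). The 4 were Itgal, Itgae, Itga4 and the low-count Itgad, which entered this fit only through BI-treated tumors. Without the filter 4 were higher as well. The ranges of the groups did not overlap in 5 members that were higher after BI (background 14.1%) and in Itgb7, which was lower (background 14.0%). In RNA of whole tissue, fewer cells of a type and less RNA per cell cannot be told apart.

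**Figure D1:**
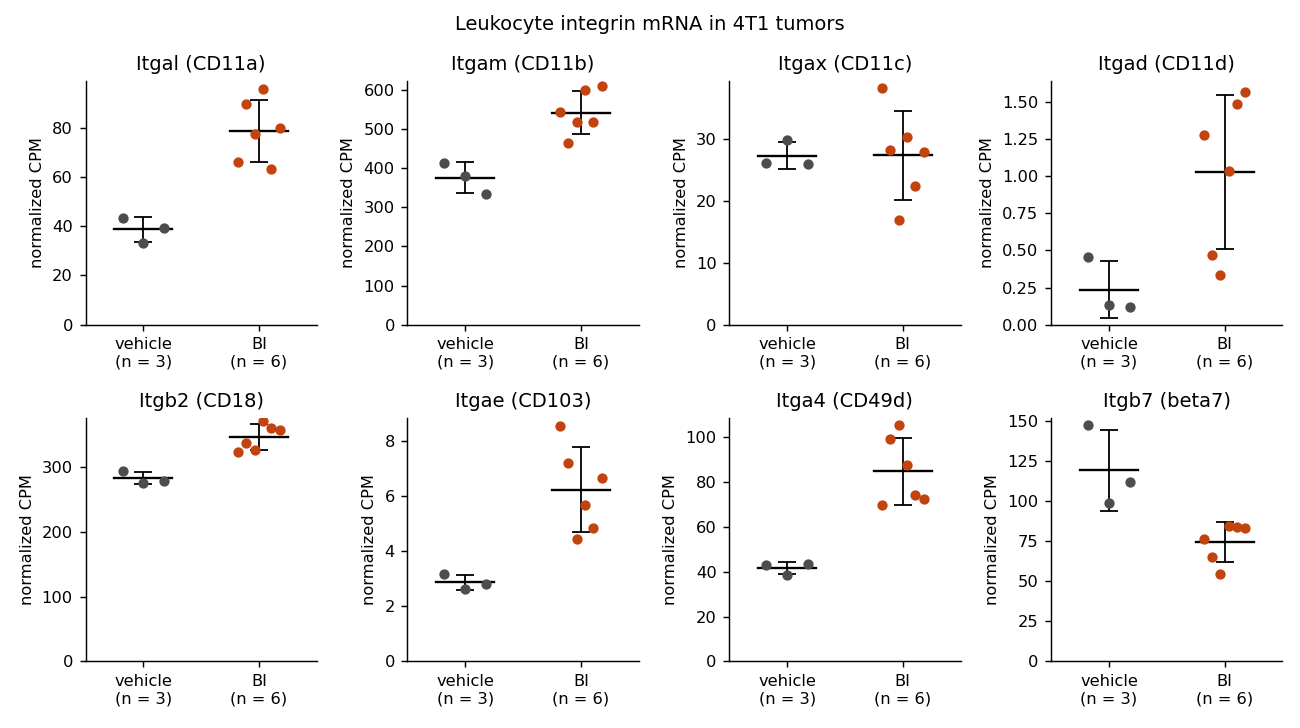
TMM-normalized CPM (y axis from 0) of the 8 leukocyte integrin genes in each tumor, with gray points for 3 vehicle-treated and orange points for 6 BI-treated tumors, and black lines for the mean ± SD. The groups do not overlap for Itgal, Itgam, Itgb2, Itgae and Itga4, which are higher after BI, or for Itgb7, which is lower, whereas the points of Itgax and Itgad overlap.

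Among the α chains of the β2 family, Itgal (Entrez gene 16408) doubled. Its vehicle-treated tumors had 43.3, 33.2 and 39.4 CPM, and its BI-treated tumors ranged from 63.2 to 95.7 CPM with a median of 78.6. The lowest BI-treated tumor thus stood well above the highest vehicle-treated tumor. Itgal rose by 1.03 on the log2 scale (SE 0.135, adjusted p = 0.000264), and by 0.93 to 1.11 when single tumors were omitted.

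Itgam (Entrez gene 16409) was the most abundant of the 4 α chains. It had 412, 381 and 333 CPM in vehicle-treated tumors and 463 to 609 CPM (median 530) in BI-treated tumors. The groups did not overlap, although the spread among vehicle-treated tumors was wide relative to the gap. Itgam rose by 0.53 on the log2 scale (SE 0.0968, adjusted p = 0.00203), below the 1.5-fold limit, which it passed without vehicle replicate 1 (0.60).

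Itgax (Entrez gene 16411), the direct neighbor of Itgam, did not pass the test. It had 26.1, 29.8 and 26.0 CPM in vehicle-treated tumors, and 17.0 to 38.3 CPM (median 28.1) in BI-treated tumors. BI replicates 1 and 4 lay above all vehicle-treated tumors and 2 others lay below, so that the BI-treated tumors surrounded the vehicle-treated ones. The log2 fold change was 0.01 (SE 0.190, adjusted p = 0.985), and its sign turned when single tumors were omitted (-0.12 to 0.11).

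Itgad (Entrez gene 381924) was close to the limit of detection, where 1 count corresponded to between 0.0295 and 0.058 CPM. The vehicle-treated tumors held 10, 3 and 4 counts, and the BI-treated tumors 7 to 27 counts. In CPM, 5 of 6 BI-treated tumors lay above all vehicle-treated tumors, and BI replicate 3 lay within their range. From the summed counts, 17 and 119, the ratio was 4.63 with an exact 95% interval of 2.77 to 8.22, which covers counting error only. In the fit across all genes, Itgad had a log2 fold change of 2.16 (SE 0.605, adjusted p = 0.0199). It passed the filter on low counts only through BI-treated tumors, and without the filter the values were 2.15 and 0.019 (edgeR adjusted p). The call was lost without vehicle replicate 2 (log2 fold change 1.92, edgeR adjusted p = 0.076) or vehicle replicate 3 (1.77, adjusted p = 0.101), and without vehicle replicate 1 the log2 fold change was 2.97 (adjusted p = 0.0163). Its overlapping neighbor Cox6a2, a muscle-type subunit of cytochrome c oxidase, had 8 to 14 counts in vehicle-treated and 11 to 31 counts in BI-treated tumors, and its part in the result was not tested.

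Itgb2 (Entrez gene 16414), the shared β chain, rose by a small amount. It had 293, 276 and 278 CPM in vehicle-treated tumors and 322 to 371 CPM (median 347) in BI-treated tumors. The groups did not overlap. The log2 fold change was 0.29 (SE 0.0625, adjusted p = 0.0051), a fold of 1.22.

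In the α4 and β7 family, both α chains about doubled while the β7 chain fell. Itga4 (Entrez gene 16401) had 42.8, 38.5 and 43.2 CPM in vehicle-treated tumors and 69.5 to 105 CPM (median 80.8) in BI-treated tumors. The tight vehicle-treated group lay far below every BI-treated tumor. The log2 fold change was 1.03 (SE 0.134, adjusted p = 0.000237). Cerkl, which overlaps it on the other strand, had at most 11 counts in any tumor, where Itga4 had at least 860.

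Itgae (Entrez gene 16407) was rare, with 3.16, 2.64 and 2.80 CPM in vehicle-treated tumors. It reached 4.44 to 8.55 CPM (median 6.17) in BI-treated tumors, without overlap between the groups. The log2 fold change was 1.12 (SE 0.213, adjusted p = 0.00255), a fold of 2.17.

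Itgb7 (Entrez gene 16421) was the only one of the 8 genes that fell. It had 147, 98.5 and 112 CPM in vehicle-treated tumors and 54.2 to 84.5 CPM (median 79.7) in BI-treated tumors. All 6 BI-treated tumors lay below the lowest vehicle-treated tumor. The log2 fold change was -0.68 (SE 0.147, adjusted p = 0.00536), and without vehicle replicate 1, the tumor with the most Itgb7, it was -0.50 (edgeR adjusted p = 0.0372), so that the gene no longer passed the 1.5-fold limit.

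The BI-treated tumors did not rank alike for all members. BI replicate 3 had the lowest Itgax, Itgad, Itgae and Itgb7 and the highest Itga4. BI replicate 4 had the highest Itgal, Itgb2 and Itgb7, and BI replicate 1 had the highest Itgax and Itgae but the lowest Itga4 and Itgb2. After the group means were removed, the highest Pearson correlations of log2 CPM were 0.93 (Itgad and Itgb7) and 0.829 (Itgax and Itgae). The lowest was -0.749 (Itgad and Itga4), and before removal the values over the 9 tumors were -0.242, 0.34 and 0.517 in the same order. These extremes of all member pairs are given as a description of tumors that also share library preparation, and Itgad had 3 to 27 counts in a tumor.

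Levels of different genes were compared per length, as CPM per kilobase of the deposited gene length. In vehicle-treated tumors the order was Itgb2 (98.6 ± 3.30), Itgam (80.2 ± 8.53), Itgb7 (44.5 ± 9.42), Itgal (7.39 ± 0.977), Itgax (6.78 ± 0.545), Itga4 (4.22 ± 0.268), Itgae (0.627 ± 0.0587) and Itgad (0.0597 ± 0.0485) CPM per kilobase. Only the neighbors Itgal and Itgax overlapped between tumors in this order. In BI-treated tumors it was Itgb2 (121 ± 6.92), Itgam (116 ± 11.7), Itgb7 (27.9 ± 4.61), Itgal (15.1 ± 2.43), Itga4 (8.61 ± 1.52), Itgax (6.80 ± 1.80), Itgae (1.36 ± 0.338) and Itgad (0.259 ± 0.131). There the ranges of Itgb2 and Itgam overlapped, as did those of Itga4 and Itgax. Itga4 thus stood below Itgax in each vehicle-treated tumor and above it in 5 of 6 BI-treated tumors.

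Of the summed per-length levels of the 4 α chains that pair with β2, Itgam made up 84.9% ± 1.1 in vehicle-treated and 83.9% ± 2.1 in BI-treated tumors. The share of Itgal was 7.86% ± 1.1 and 11% ± 1.8, and the share of Itgax was 7.22% ± 0.80 and 4.93% ± 1.2. Itgax had its lowest share in BI replicate 3, with 3.26% beside 11.4% for Itgal. Itgad stayed below 0.3% in every tumor.

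Whether mRNA of partner chains changed alike in whole tissue was tested with the ratio of per-length α to β chain levels within each tumor. The partner chains need not come from the same cells, so a ratio does not show how they pair within a cell. A ratio of this kind does not depend on how libraries are scaled. For 7 ratios, all 84 divisions of the 9 tumors were compared in an exact two-sided permutation test, whose smallest p is 0.0238. The ratios of Itgae to Itgb7, of Itga4 to Itgb7, of Itga4 to Itgb1 and of Itgal to Itgb2 each reached this smallest exact p, which is 0.0417 after Benjamini-Hochberg adjustment over the 7 ratios.

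The largest of these shifts was that of Itgae to Itgb7. This ratio of per-length levels was 0.0127, 0.0158 and 0.0147 in vehicle-treated tumors and 0.0341 to 0.0655 in BI-treated tumors, a difference of 1.76 on the log2 scale. The ratio of Itga4 to Itgb7 rose from 0.0792, 0.106 and 0.105 to between 0.238 and 0.528, a log2 difference of 1.69. The per-length level of Itgb7 exceeded the sum of Itga4 and Itgae in every tumor. The margin was narrowest in BI replicate 3, with 20.28 against 11.67 CPM per kilobase, whereas vehicle-treated tumors had 36.8 to 55.0 against 4.49 to 5.05.

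Itgb1, which encodes the other partner of α4, did not pass the test, with means of 914 ± 19.5 CPM (vehicle) and 897 ± 40.1 CPM (BI) (log2 fold change -0.03, SE 0.0617, adjusted p = 0.776). The ratio of Itga4 to Itgb1 rose by 1.04 on the log2 scale. In the β2 family, the ratio of Itgal to Itgb2 rose from 0.081, 0.066 and 0.0776 to between 0.0963 and 0.146, a log2 difference of 0.73. The ratio of Itgam to Itgb2 differed by 0.24 and that of Itgad to Itgb2 by 1.80 (exact permutation p = 0.0714 for each, adjusted 0.0833), with overlap between the groups in both. That of Itgax to Itgb2 differed by -0.33 (exact permutation p = 0.214), and it was below every vehicle-treated tumor in 5 of 6 BI-treated tumors.

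**Figure D2:**
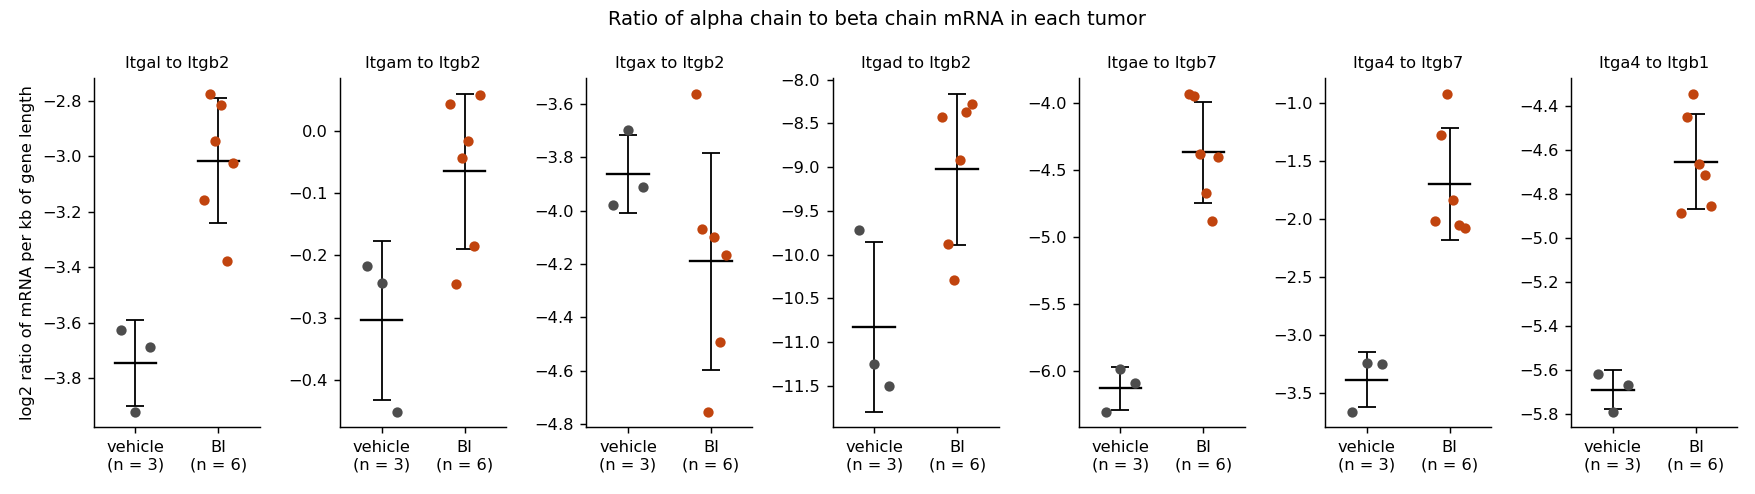
Log2 ratio of the per-length mRNA level of an α chain to that of a β chain (y axis, a separate scale in each panel) in each tumor, with gray points for 3 vehicle-treated and orange points for 6 BI-treated tumors, and black lines for the mean ± SD. The groups are apart for Itgal to Itgb2 and for Itga4 or Itgae to their β chains, and they overlap for Itgam, Itgax and Itgad to Itgb2.

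Ptprc, which encodes the leukocyte common antigen CD45, rose from 174 ± 7.98 CPM (vehicle) to 289 ± 33.7 CPM (BI) (log2 fold change 0.73, SE 0.0941, adjusted p = 0.000225). The fit across all genes was therefore repeated with each tumor scaled to its Ptprc counts, so that a change is relative to this leukocyte gene. This scaling moved the median log2 fold change of all genes to -0.72, and 1.73% of genes tested were then higher and 79.1% lower in BI-treated tumors. Relative to Ptprc, Itgal was called higher, close to the limit (log2 fold change 0.30, SE 0.134, edgeR adjusted p = 0.0406). This scaling was not rerun without single tumors, so the stability of that call was not tested. The fitted value of Itgad was 1.45 (SE 0.535, adjusted p = 0.0142), but it entered this fit too only through BI-treated tumors, and the scaling was not rerun without the filter or without single tumors, so that no change relative to Ptprc is read from it. Itgae (0.40, adjusted p = 0.0999) and Itga4 (0.32, adjusted p = 0.0564) did not pass. Itgam was at -0.20 (adjusted p = 0.18). Itgb2 (-0.43, adjusted p = 0.00425), Itgax (-0.73, adjusted p = 0.000169) and Itgb7 (-1.39, adjusted p = 3.11e-09) were lower, each without overlap between the groups, as were 73.4% of all genes (0.809% lay wholly higher). Both Itgal and Itgad overlapped between the groups under this scaling. At the cutoffs of the study the 1 member then higher was Itgad (background 1.15%), from which nothing is read for the same reason, and 2 were lower (background 66.9%), so that the lower members stood among a majority of all genes. By its construction this scaling lowers the value of every gene by about the change of Ptprc itself, so that the values of Itgam and Itgb2, which had risen by less than Ptprc, turned below 0. Itgax had no called direction before.

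**Figure D3:**
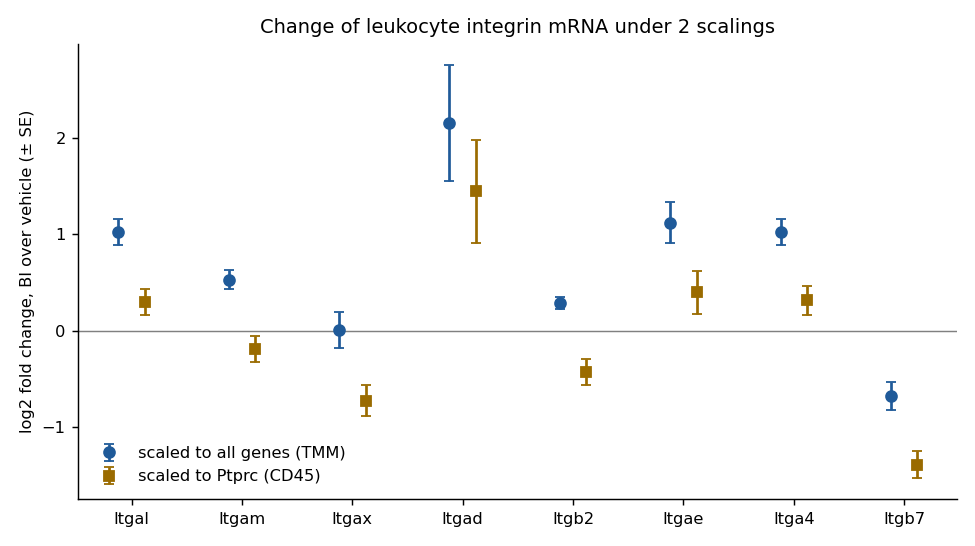
Log2 fold change of BI over vehicle (y axis, ± SE of the edgeR fit) for the 8 genes, with blue circles for counts scaled to all genes (TMM) and brown squares for counts scaled to Ptprc, over 3 vehicle-treated and 6 BI-treated tumors. Itgb7 is below 0 under both scalings, and Itgam and Itgb2 lie above 0 under TMM and below 0 when scaled to Ptprc, which itself rose.

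Of 13 genes that encode ligands of these receptors, 11 were tested, 3 rose, 2 fell and 6 did not pass, with a median log2 fold change of 0.16 (0 higher and 7 lower when scaled to Ptprc). The shares of all genes tested were 14.6% and 14.1%, and 1.73% and 79.1% when scaled to Ptprc, and the counts of the lists that follow stand beside the same shares. Fn1, which encodes fibronectin, a ligand of VLA-4, rose from 8664 ± 1107 to 13636 ± 2165 CPM (log2 fold change 0.65, adjusted p = 0.0049). Jam2, a junctional ligand of VLA-4, rose from 7.42 ± 0.172 to 10.5 ± 1.52 CPM (0.50, adjusted p = 0.0114), and Icam2, an endothelial ligand of LFA-1, fell from 25.6 ± 2.93 to 19.2 ± 1.84 CPM (-0.41, adjusted p = 0.00932). The other ligands that passed were Thy1, which rose by 0.51, and F11r, at -0.28. Of these calls, Icam2, F11r and Thy1 were lost without vehicle replicate 1, Thy1 without vehicle replicate 2, and Jam2 without vehicle replicate 3 (edgeR adjusted p between 0.0525 and 0.0888), whereas Fn1 was called in every fit that left out a tumor. Values of the main inducible ligands, none of which passed, were 52.9 ± 6.82 and 59.3 ± 5.57 CPM for Icam1 and 327 ± 35.0 and 297 ± 60.8 CPM for Vcam1. Cdh1, the E-cadherin bound by CD103, did not pass, at 19.2 ± 0.566 CPM (vehicle) and 21.5 ± 8.84 CPM (BI) (log2 fold change 0.16, adjusted p = 0.686). Madcam1 had at most 2 counts in any tumor and was not tested.

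Of 14 genes that regulate integrin activation from inside the cell, among them Sharpin, Itgb1bp1 and Flna, whose products are known to restrain it, 8 rose and 1 fell, with a median log2 fold change of 0.24 (1 higher and 9 lower when scaled to Ptprc). Fermt3, which encodes kindlin-3, the hematopoietic protein that binds β tails, rose from 54.6 ± 8.39 to 105 ± 7.05 CPM (log2 fold change 0.95, adjusted p = 4.17e-05). Sharpin was among the 8, with a log2 fold change of 0.20 (adjusted p = 0.0312). The adaptor gene Fyb (0.90, adjusted p = 5.16e-05) and Rassf5 (0.73, adjusted p = 0.00088), whose product links Rap1 to LFA-1, also rose. Apbb1ip, which encodes the Rap1 effector RIAM, fell from 132 ± 7.52 to 115 ± 7.32 CPM (-0.20, adjusted p = 0.0371). Talin (Tln1) had 527 ± 45.9 and 575 ± 35.6 CPM, and filamin A (Flna), the most abundant of the list, 1438 ± 105 and 1265 ± 96.0 CPM, and neither passed. Without vehicle replicate 3, 5 genes of this list rose in place of 8, and of 9 fits that each left out a tumor, Stk4, which was among the 8, lost its call in 8, Apbb1ip in 6 and Sharpin in 4.

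Of 14 genes that encode signaling proteins below engaged integrins in leukocytes, 12 rose and 0 fell by edgeR, whereas 2 were higher and 2 lower when scaled to Ptprc. DESeq2 and limma-voom each gave 12 and 0 as well. All 14 values fitted by edgeR were above 0, so that no gene was lower at any p, and their median log2 fold change was 0.77. The genes that did not pass were Fgr, which encodes a Src family kinase (24.1 ± 4.36 and 30.2 ± 6.92 CPM), and Ptk2b, which encodes PYK2, the kinase related to FAK (103 ± 11.5 and 119 ± 10 CPM, edgeR adjusted p = 0.093). Plcg2, a phospholipase of B and myeloid cells, rose from 81.9 ± 2.15 to 188 ± 27.0 CPM (1.20, adjusted p = 3.59e-05). The phosphoinositide kinase gene Pik3cd rose by 0.78 and the adaptor gene Tyrobp (DAP12) by 0.67 (adjusted p = 3.84e-05 for each), and the most abundant gene, Fcer1g, rose from 169 ± 13.9 to 289 ± 27.1 CPM.

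The list of other integrin chains held 18 genes. Of the 17 tested, 3 rose, 5 fell and 9 did not pass, with a median log2 fold change of 0.14 (1 higher and 12 lower when scaled to Ptprc, where 79.1% of all genes were lower). Those that fell were Itga7 (63.7 ± 1.84 to 23.5 ± 4.29 CPM, log2 fold change -1.44), Itga3 (623 ± 55.9 to 333 ± 37.3 CPM, -0.90), Itga2 (-0.89), Itga6 (-0.63) and Itgav (-0.46). Itga10, a collagen-binding chain, rose from 17.8 ± 1.64 to 36.9 ± 5.43 CPM (1.05, adjusted p = 0.000134), and the others that rose were Itga9 (0.36) and Itgb5 (0.28). Without vehicle replicate 1 or vehicle replicate 3, 1 gene of this list rose in place of 3, as Itga9 and Itgb5 lost their calls, and Itgb5 lost its call in 5 other such fits.

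**Figure D4:**
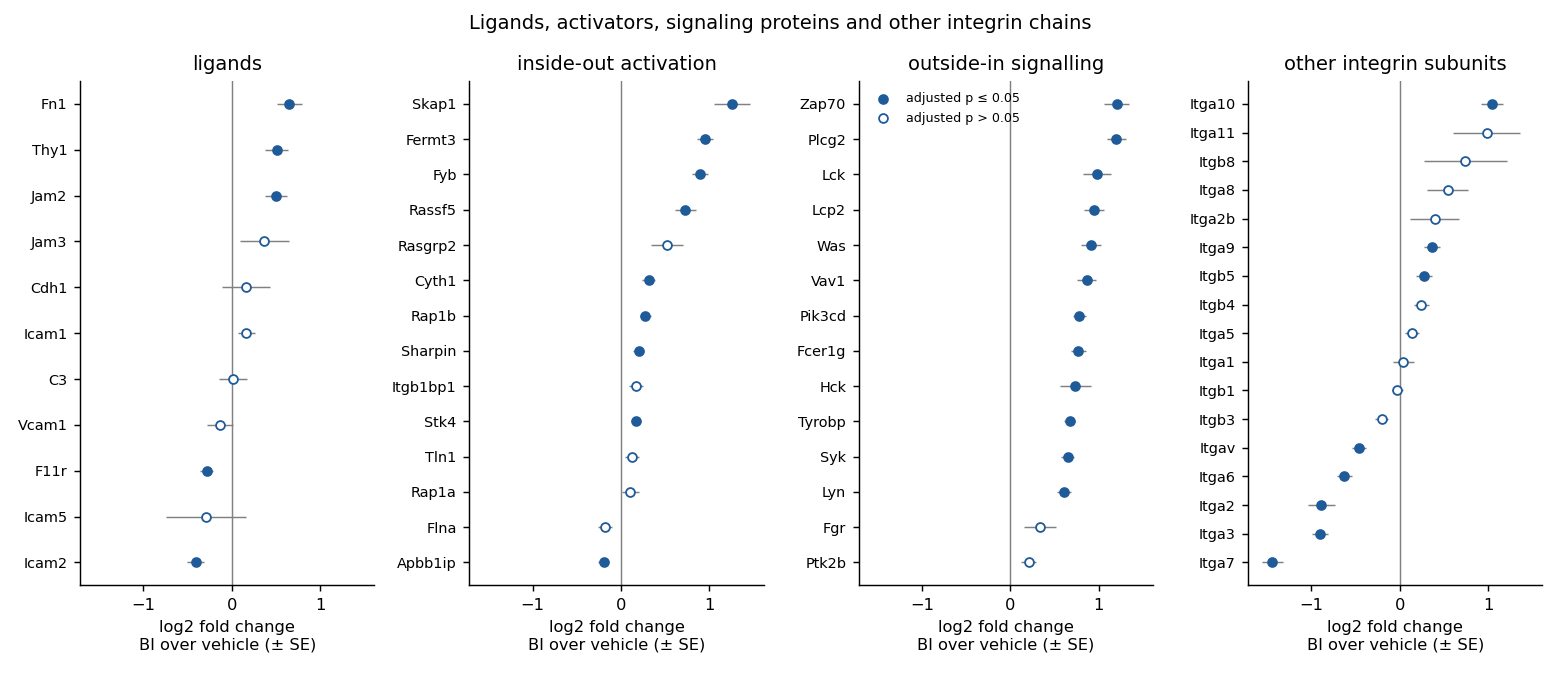
Log2 fold change of BI over vehicle (x axis, ± SE of the edgeR fit, 3 vehicle-treated and 6 BI-treated tumors) for each tested gene of 4 lists, with filled circles at an adjusted p of at most 0.05 and open circles above it. In the list of outside-in signalling 12 of 14 genes lie right of 0 with filled circles, whereas the other integrin subunits lie on both sides.

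Markers of the cells that carry these receptors were measured in the same libraries. Over all genes tested, 14.6% rose and 14.1% fell by the same rule. All 6 pan-leukocyte genes rose, with sums of 789 to 875 CPM (vehicle) and 1143 to 1450 CPM (BI) and Laptm5 the most abundant. The summed CPM of 10 T cell markers lay between 156 and 182 in vehicle-treated and between 260 and 335 in BI-treated tumors, and 9 of the 10 rose (Cd8a from 17.5 ± 2.65 to 41.3 ± 8.67 CPM, while Cd4 had 5.40 ± 0.575 and 7.02 ± 2.01 CPM and did not pass). Thy1, which fibroblasts also express, was their most abundant gene. Of 10 macrophage markers 9 rose, with sums of 1743 to 2318 and 3428 to 4222 CPM (Csf1r from 230 ± 16.5 to 431 ± 39.6 CPM, and Mrc1 the most abundant). Of 8 NK cell markers 7 rose (34.8 to 46.0 and 87.0 to 110 CPM, Prf1 the most abundant), and of 8 dendritic cell markers 6 rose (50.6 to 61.3 and 91.0 to 152 CPM, Ccr7 the most abundant). Among them, Xcr1, a marker of the cross-presenting cells that can carry CD103, had 2.73 ± 0.428 and 6.93 ± 2.24 CPM.

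Of 9 neutrophil markers 4 fell and 5 did not pass, with sums of 544 to 756 CPM in vehicle-treated and 224 to 381 CPM in BI-treated tumors, and S100a9 was the most abundant. Of 7 tumor epithelium markers, Krt8 and Krt18 fell and the other 5 did not pass, among them Epcam, Krt7 and Cdh1 with fitted log2 values above 0 (1.06, 0.59 and 0.16). Sums of this list, to which Krt8 and Krt18 gave most of the counts, were 954 to 1177 and 748 to 957 CPM. The 5 monocyte markers were mixed, as Plac8 and Ly6c2 rose, Cd14 fell, and Ccr2, the most abundant, did not pass. Plac8 (edgeR adjusted p = 0.0172) and Ly6c2 (edgeR adjusted p = 0.0499) overlapped between the groups. Calls of the marker lists were not examined with tumors left out. Of 7 mast cell markers 6 rose, with sums of 24.7 to 43.1 CPM and 46.7 to 360 CPM and Tpsb2 the most abundant, and of 5 B cell markers tested 3 rose, with sums of 7.69 to 10.3 and 12.02 to 19.02 CPM. The 3 eosinophil markers tested did not pass, with sums of 1.34 to 3.89 and 0.945 to 3.25 CPM. Of the lymph node genes only Cxcl13 could be tested, and it rose from sums of the list of 3.44 to 8.76 CPM to between 10.4 and 109 CPM. Of the endothelial markers 2 of 5 rose (154 to 178 and 175 to 251 CPM, Pecam1 the most abundant). Of the fibroblast markers 1 of 6 rose (1426 to 2395 and 1941 to 3880 CPM, Col1a1 the most abundant), beside 14.6% of all genes. The fibroblast gene called was Col1a2 (edgeR adjusted p = 0.0437), with overlap between the groups. The part of the cells of these lists in the changes of the integrin genes was not tested.

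**Figure D5:**
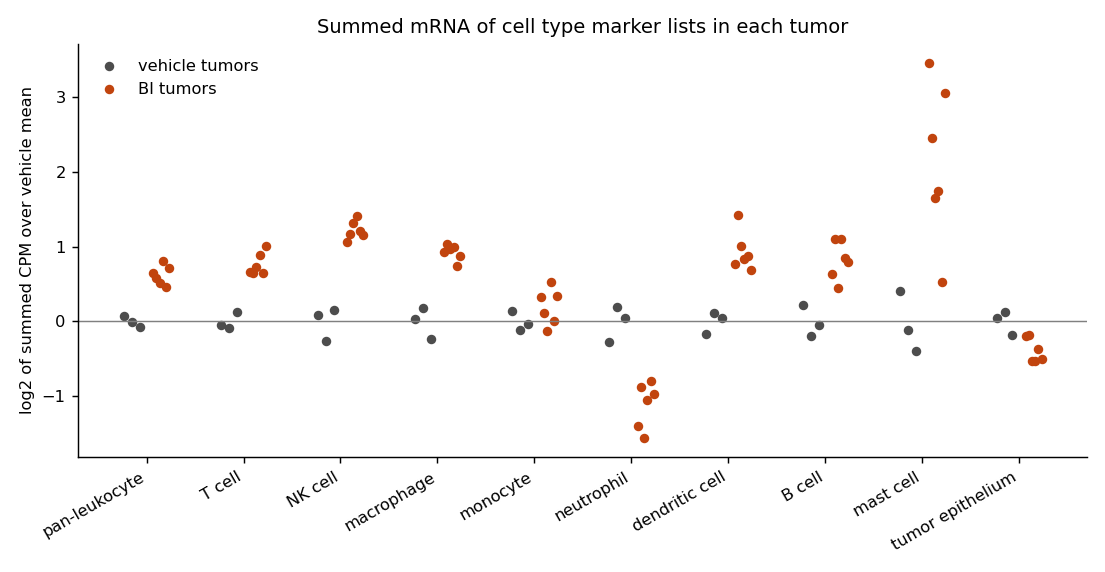
Log2 of the summed CPM of 10 cell type marker lists in each tumor, relative to the mean of the vehicle-treated tumors (y axis), with gray points for 3 vehicle-treated and orange points for 6 BI-treated tumors. Sums of the neutrophil list lie below those of all vehicle-treated tumors and sums of the T cell, NK cell, macrophage and dendritic cell lists lie above them in all 6 BI-treated tumors, while the monocyte sums overlap.

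For each member, the 3 genes with the most similar pattern were found by the Pearson correlation of log2 CPM over the 9 tumors, among 12222 other genes. Tumors of both groups enter, so that a shared difference between the groups raises the correlation, and the value after removal of the group means is given as well. The genes most like Itgam were Lcp1 (0.994, and 0.984 after removal), which encodes the leukocyte actin bundler L-plastin, Spi1 (0.99 and 0.952), which encodes PU.1, and Ctla2b (0.987 and 0.956). Those most like Itgal were Rtl8c (0.992 and 0.945), Gpr65 (0.99 and 0.937) and Il16 (0.99 and 0.934). Those most like Itgax were Grem1 (0.977 and 0.985), which encodes an antagonist of bone morphogenetic proteins, Dpysl2 (0.892 and 0.902) and Adipor2 (0.891 and 0.892).

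For Itgb2 they were Slamf8 (0.978 and 0.875), Tlr9 (0.975 and 0.87) and Sectm1a (0.971 and 0.843), and for Itgad Tspan17 (0.988 and 0.977), Lrmda (0.982 and 0.959) and Pik3r5 (0.976 and 0.95). Those most like Itga4 were Gna12 (0.992 and 0.941), Aoah (0.99 and 0.927) and Lifr (0.988 and 0.918), and those most like Itgae were Cables1 (0.978 and 0.898), Matn2 (0.977 and 0.903) and Ankrd44 (0.976 and 0.888). For Itgb7 they were Pcolce2 (0.965 and 0.902), Iffo2 (0.965 and 0.898) and Styk1 (0.963 and 0.911). None of the 24 genes was listed for 2 members.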

How the data were processed

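Messenger RNA of 9 4T1 tumors was sequenced (3 vehicle, 6 BI). The authors aligned paired-end reads to mm9 with STAR, kept unique hits, and counted with QuasR the reads that start in an exon of a RefSeq gene. The deposited values are raw counts without normalization, and the deposited gene length, whose other details are not given in the sources used here, served only for levels per kilobase. Entrez identifiers of 18700 of 18755 genes were matched to RefSeq symbols, positions came from GENCODE on mm9 and promoters from RefSeq on GRCm38.p6. Of 165 list entries, 3 had no row in the counts (Ly6g, Ccl21a and Ccl19).

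Counts were analyzed with edgeR 4.0.16 in R 4.3.3 (TMM, filterByExpr at 10 counts and 15 in total, quasi-likelihood F test without covariates). P values were adjusted by Benjamini-Hochberg over all genes tested, and SE was computed from the log2 fold change and F. Log2 CPM used a prior count of 2 and ratios a pseudocount of 0.5 counts. Replicates were numbered within each group in the order of the samples, and the labels name no batch. Between pairs of tumors of a group, the mean chi-square per gene was at least 8.72, so each tumor was counted as its own replicate. A floor of 3 counts corresponded to 0.0884 to 0.174 CPM and covers counting error only. Although the rule for the members uses names only, the members and lists were chosen with earlier results of these data known. Named were, besides the members, Itgb1 and Ptprc, mainly the 3 genes with the smallest p and the most abundant gene of each list, and the 3 genes most like each member. Others (Cdh1, Icam1, Vcam1, Madcam1, F11r, Tln1, Apbb1ip, Sharpin, Stk4, Itgb1bp1, Krt7, Fgr, Ptk2b, Itga2, Itga6, Itga9, Itgav, Itgb5, Cd4 and Thy1 as a ligand) were added after their values were seen. Alternatives were RLE, library size or Ptprc as scaling, no filter or 1 CPM in 3 tumors, DESeq2 1.42.0, limma-voom (limma 3.58.1), a 2-fold limit, a pseudocount of 2, and leaving out each tumor.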

Additional observations from a re-analysis of the deposited data

Results flagged for a closer look

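Among 73 genes and ratios checked in the 6 BI-treated tumors, 4 genes had 1 tumor far from the others (Dixon's test at 95%, which flags about 1 group in 20 by chance), and none was a leukocyte integrin or a ratio. In BI replicate 2, Fn1 reached 17910 CPM, with the next tumor at 13420 CPM, and Xcr1 reached 11.2 CPM, with the next at 7.47 CPM. In BI replicate 6, Cxcl13 reached 109 CPM, with the next tumor at 37.8 CPM, and Epcam reached 10.3 CPM, with the next at 4.18 CPM.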

How the results depend on the processing

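With RLE or library size as scaling, either filter, DESeq2 or limma-voom, every member kept its side of the threshold and its direction, except that Itgax, which passed in none of these, was at -0.03 with limma-voom. Scaling to Ptprc changed most: Itgam went to -0.20, Itgax to -0.73 and Itgb2 to -0.43, and Itgae (0.40) and Itga4 (0.32) lost their calls. With it, 2 members (Itgal and the low-count Itgad) were called higher and 3 lower, 1 and 2 passed the cutoffs of the study, and 0 and 3 lay without overlap, against 1.15%, 66.9%, 0.809% and 73.4% of all genes for the last 4 counts. The ligands then gave 0 genes higher and 7 lower, inside-out activation 1 and 9, outside-in signalling 2 and 2, and other integrin subunits 1 and 12. By construction these are changes relative to 1 gene that itself rose. A 2-fold limit left 0 members lower.

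With each tumor left out in turn, log2 fold changes ranged from 1.77 to 2.97 for Itgad. Members past the cutoffs of the study numbered 4 to 5 higher and 0 to 1 lower, and both the 5 (with Itgam) and the 0 (without Itgb7) came without vehicle replicate 1. Ligands called lower numbered 0 to 2, inside-out activation genes 5 to 9 higher and 0 to 1 lower, and other integrin subunits 1 to 4 higher. Log2 differences of ratios ranged from 0.64 to 0.80 for Itgal to Itgb2, 0.165 to 0.282 for Itgam to Itgb2, -0.45 to -0.21 for Itgax to Itgb2, 1.46 to 2.35 for Itgad to Itgb2, 1.67 to 1.86 for Itgae to Itgb7, 1.53 to 1.76 for Itga4 to Itgb7 and 0.98 to 1.09 for Itga4 to Itgb1. Without a tumor the smallest exact two-sided p is 0.0357 or 0.0714, so that lost calls of ratios say nothing about stability. Without BI replicate 1 the ratio of Itgax to Itgb2 (-0.45) and without BI replicate 2 that of Itgam to Itgb2 (0.27) passed at an adjusted p of 0.05. Itgad is limited by its depth.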
